A study of Canis lupus familiaris with 2 samples.

Results

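ON bipolar cells, rod bipolar cells among them, were gated by their marker genes in single-cell RNA sequencing of the neuroretina of 2 dogs, N350 and N354. A cell was taken when at least 3 of the 8 markers *PCP2*, *TRPM1*, *ISL1*, *GNG13*, *CABP5*, *PRKCA*, *CCDC136* and *VSTM2B* had 1 or more UMI, when at least 1 of these was *TRPM1*, *PCP2* or *ISL1*, and when *GRIK1*, a kainate receptor subunit of OFF bipolar cells, had 0 UMIs. A UMI (unique molecular identifier) counts each captured mRNA molecule once. Of 13282 cells with at least 200 genes detected, 650 met this rule, 376 of 8895 in N350 and 274 of 4387 in N354. The members were thus chosen by their UMIs, and the 9 genes of the rule are described below and not tested.

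Both dogs were male, were 40 weeks old and carried the normal genotype, and no treatment is named for either. Punches of retina were digested with trypsin and a kit for neural tissue, and 1 droplet library was made per dog, so that dog and library cannot be told apart. The tables list 34981 genes in N350 and 19947 in N354, and 15224 names occur in both. A difference in level between the dogs can therefore not be told apart from a difference between the tables. N350 had 24030707 UMIs in 8900 barcodes and N354 had 9711202 in 4392, of which 5 barcodes in each dog had fewer than 200 genes. The dogs shared 6 barcodes, and 0 of these were gated as ON bipolar. The gated cells held 1547940 UMIs in N350 and 696945 in N354. A gated cell had a median of 2299 UMIs in N350 and 2436.5 in N354, against 1298 and 1204 over all cells. Levels are given as UMIs per 10000, which is the share of a gene in the summed UMIs of a population of cells in 1 dog, multiplied by 10000. They are not divided by gene length, and levels are compared between populations and not between genes.

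Bipolar cells carry the signal of the photoreceptors to amacrine and ganglion cells. ON bipolar cells sense glutamate with the metabotropic receptor mGluR6, encoded by *GRM6*. In the dark the receptor acts through the G protein Go to hold the cation channel TRPM1 closed, and in light, when photoreceptors release less glutamate, the channel opens and the cell depolarizes. A complex of RGS proteins with the orphan receptor GPR179 ends the action of Go. Rod bipolar cells are ON cells that receive rods and contain protein kinase C alpha, the product of *PRKCA*, whereas OFF bipolar cells sense glutamate with ionotropic receptors.

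*PCP2*, a modulator of Go, and *GNG13*, a G protein gamma subunit, were the genes of the rule found in most gated cells. *PCP2* was found in 93.4% of gated cells of N350 and 95.6% of N354, and *GNG13* in 92.0% and 95.6%. *TRPM1* was found in 76.9% and 91.2%, and *ISL1*, a transcription factor of ON bipolar cells, in 51.1% and 72.3%. All 4 were found in a larger share of the cells of N354. *CABP5*, a calcium-binding protein of bipolar cells, stood the other way, with 71.3% of cells in N350 and 53.3% in N354. *CCDC136* was found in 67.6% and 83.9%, *VSTM2B* in 57.4% and 63.1%, and *PRKCA* in 64.4% and 69.0% of the cells of N350 and N354.

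In rods, which should lack these genes, the shares were a small part of those in gated cells. *PCP2* was found in 2.79% of rods in N350 and 1.37% in N354, and *TRPM1* in 0.379% and 0.844%, at median depths of 1075.5 and 1003 UMIs per cell. Müller glia, which were deeper than the gated cells at medians of 6494 and 5187 UMIs, had *PCP2* in 4.74% and 2.47% of cells. *PRKCA* was the least restricted of the 8, with 8.24% and 2.81% of rods and 20.3% and 6.42% of Müller glia. After each cell was thinned to 1000 UMIs, gated cells of at least that depth had *PCP2* in 80.2% and 91.8%, *TRPM1* in 64.8% and 90.1%, and *PRKCA* in 53.1% and 52.3% of cells. The share of the retina that passed the gate was 4.23% (exact 95% interval 3.82% to 4.67%) in N350 and 6.25% (5.55% to 7.0%) in N354. With every cell thinned to 1000 UMIs before gating, it was 4.63% and 8.87%. All intervals cover counting error only, and *PCP2*, *TRPM1* and the other genes of the rule are given here as a description of the gate.

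**Figure D1:**
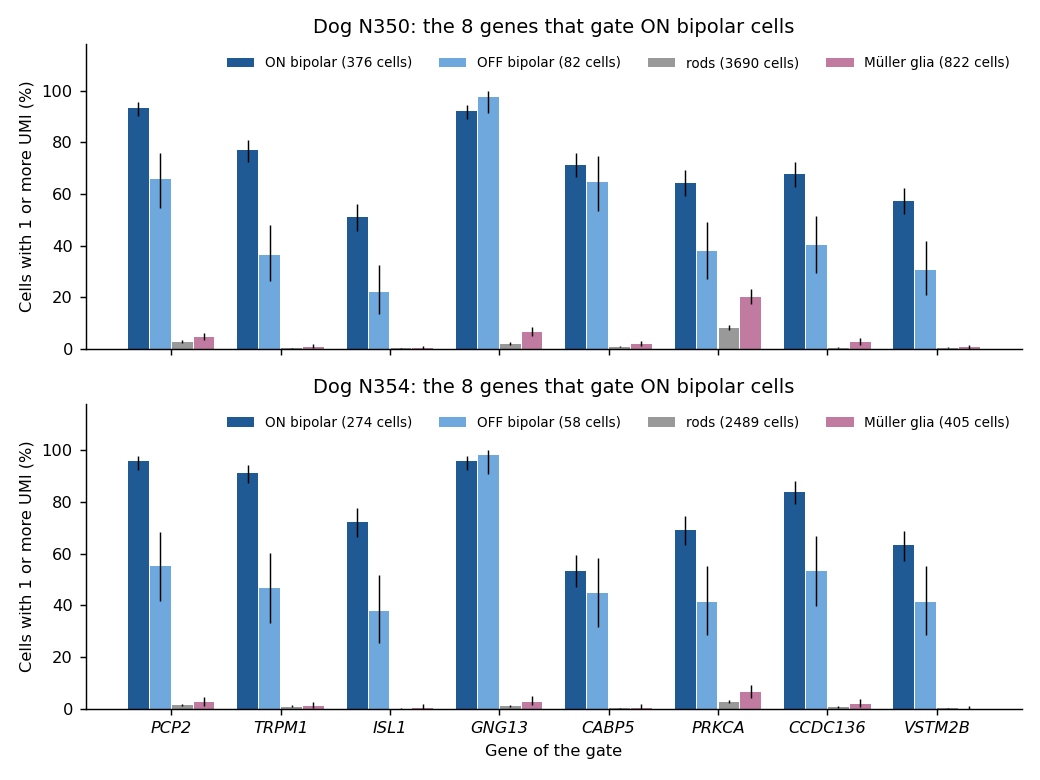
Share of cells with 1 or more UMI (%) of each of the 8 marker genes in ON bipolar cells, OFF bipolar cells, rods and Müller glia of each dog, with exact binomial 95% intervals as bars. The gate sets the shares in ON bipolar cells; rods stay at or below 8.24% for every gene, and *PRKCA* reaches 20.3% in the Müller glia of N350.

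The gated cells fell towards both ends of the range of markers. In N350, 123 cells had all 8 markers and 90 had 3, whereas 27 had 5. In N354, 87 cells had 8 markers and 34 had 3, and 19 had 5. Cells with 7 or 8 markers made up 47.3% of those gated in N350 and 59.1% in N354, and cells with 3 or 4 made up 37.5% and 23.7%. Just outside the rule, 222 cells of N350 and 36 of N354 had 2 markers, among them *TRPM1*, *PCP2* or *ISL1*, with *GRIK1* at 0. A further 56 and 31 cells failed the rule on *GRIK1* alone, and 48 and 30 of these met the gate for OFF bipolar cells given below.

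Bipolar genes that the rule did not use stood higher in cells with 8 markers than in cells with 3. *GRM6* was at 0.485 UMIs per 10000 in cells of N350 with 3 markers and at 2.75 in those with 8, and at 0.923 and 3.69 in N354. *GNAO1*, the alpha subunit of Go, was at 4.27 and 25.1 in these classes of N350 and at 2.31 and 10.7 in those of N354. Both dogs therefore had less of these genes at the low end of the rule, where the cells were also shallower, with medians of 1607 UMIs in N350 and 1256 in N354 against 3646 and 3026 in cells with 8 markers. Cells with 2 markers, outside the rule, had *GRM6* at 0.257 and 0.546.

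*NEFL* and *GLUL*, genes of other retinal cells, stood higher in cells with 3 markers than in cells with 8. They are examples, and *NEFM*, a ganglion marker, was found in most cells with all 8 markers, as given below. *NEFL*, a neurofilament of ganglion cells, was at 54.1 UMIs per 10000 in the cells of N350 with 3 markers and at 0.579 in those with 8. In N354 it was at 1.61 and 0.533. *GLUL*, the glutamine synthetase of Müller glia, was at 48.0 and 1.26 in N354, and at 13.2 and 1.99 in N350, where the classes with 4 and 6 markers stood higher still at 28.5 and 39.0. Of the cells with 3 markers, 18 of 90 had a *PRKCA* UMI in N350 and 7 of 34 in N354, and all cells with 8 have it by the rule.

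**Figure D2:**
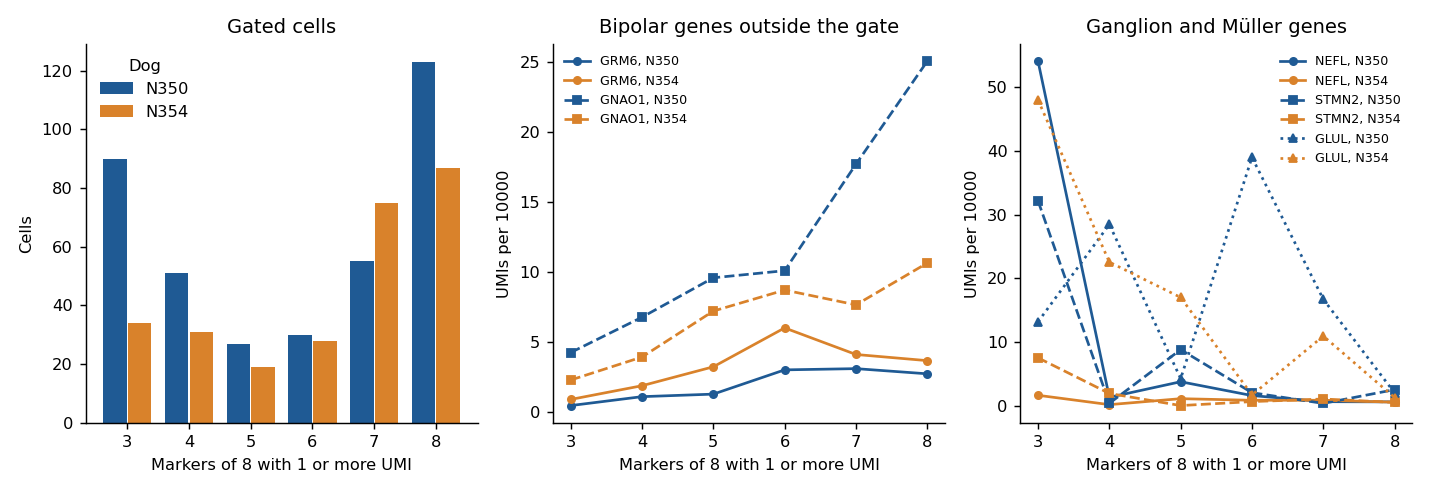
Left, number of gated cells by how many of the 8 markers had a UMI, for each dog. Middle and right, UMIs per 10000 of 2 bipolar genes and of 3 ganglion and Müller genes in the same classes of cells. *GRM6* and *GNAO1* are lowest in cells with 3 markers in both dogs, where *NEFL* of N350 and *GLUL* of N354 are highest.

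The label was checked against the markers of other cells. *GRM6*, the receptor gene of ON bipolar cells, is outside the rule and was found in 44.9% of gated cells in N350 and 54.7% in N354. It was found in 0.163% and 0.121% of rods and 0.487% and 0% of Müller glia. The OFF bipolar cells defined below were set apart less clearly. In thinned cells *GRM6* was found in 24.4% of gated cells in N350 and 34.6% in N354. In thinned OFF bipolar cells it was found in 10% and 18.2%. The gate also held cells with markers of other types. In N350, 15 gated cells had at least 3 of the ganglion markers, 24 at least 3 of the amacrine, 16 at least 3 of the cone and 58 at least 4 of the Müller markers, which came to 87 cells (23.1%) with 57.2% of the gated UMIs. In N354 the same counts were 6, 4, 10 and 32, which came to 41 cells (14.96%) with 21.5% of the UMIs. These cells had medians of 5217 and 2422 UMIs, against 2299 and 2436.5 over all gated cells, so that they were deeper in N350 and not in N354, and the deepest barcode of the gate held 111578 UMIs in N350. The count over all genes tested in each comparison below, and some counts of listed genes, are also given without these 87 and 41 cells. That choice was made after the data had been seen, and it lowers the markers used to leave the cells out by construction.

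Ganglion markers summed to 62.6 UMIs per 10000 in the gated cells of N350 and 8.49 in N354, against 3.75 and 1.15 in other cells. *NEFL* led them in N350 (21.5) and *NEFM* in N354 (5.62), and in N354 *SNCG*, *POU4F2* and *SLC17A6* were at 0 UMIs. Without the cells holding other markers, the sums were 5.68 and 7.91, *NEFM* led in both dogs, and *SNCG*, *POU4F2*, *SLC17A6* and *GAP43* were at 0 in both. Müller markers summed to 55.9 and 51.5, led by *VIM*, and to 7.38 and 3.62 without those cells. Rod markers summed to 56.3 in N350 and 45.1 in N354, where *GNGT1* led them, against 635 and 827 in rods. Without the cells holding other markers they summed to 83.2 and 37.8. Amacrine markers summed to 5.52 and 3.76, cone markers to 4.98 and 10.3, and horizontal markers to 8.64 and 4.52, most of it *PROX1*, while *LHX1* was at 0 in both dogs. Microglia markers summed to 0.388 and 0.918, nearly all of it *AIF1*, vascular markers to 0.491 and 0.430, led by *FLT1* with *CDH5*, *PECAM1* and *ACTA2* at 0, and astrocyte markers to 0.685 and 0.402 with *PAX2* at 0.

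Mitochondrial genes took a larger share of UMIs in the gated cells than in rods, with medians of 12.4% in N350 and 17.2% in N354 against 4.70% and 6.08%. OFF bipolar cells were also high, at 11.99% and 12.97%. A limit of 5% on the 13 mitochondrial genes would leave 17 and 2 of the gated cells, and none was used. Doublet scores of Scrublet marked 0 and 2 cells of the dogs by its own threshold, which had not worked. Removal of the 4% of cells with the highest scores took 37 and 31 gated cells.

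The gated cells were first compared with the rest of the retina, 8437 cells of N350 and 4055 of N354 that met neither the ON nor the OFF gate, with UMIs summed per dog and population and the dog kept as a term. These other cells include any bipolar cell that the gate missed, such as those with 2 markers. The genes tested lie outside the rule but were counted in the same cells as the 9 that chose them. Of 10489 genes tested, 805 were higher in ON bipolar cells (7.67%) and 975 were lower (9.3%) at an adjusted p under 0.05. Without the cells holding other markers, 1092 of 10462 genes were higher (10.4%) and 1826 lower (17.5%), and 1618 of the first 1780 calls were among them. In a fit with no term for the dog, 0 genes were called by edgeR, with 872 at an unadjusted p under 0.05. All adjusted p-values are from the quasi-likelihood test of edgeR with Benjamini-Hochberg adjustment over all genes fitted, and rest on 2 dogs.

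Genes of the mGluR6 cascade were among the largest differences. Of 17 listed genes, 3 belong to the rule and 12 could be tested, of which 9 were higher and 2 lower, with a median log2 fold change of 1.87 against -0.04 over all genes tested. The same 9 were higher and the same 2 lower without the cells holding other markers, with a median of 2.12 against -0.13. Beside this list and the lists below compared with other cells, 7.67% of all genes tested were higher and 9.3% lower. Without the cells holding other markers these shares were 10.4% and 17.5%. *ELFN1* was not analysed in N354, and *CACNA1S* had 0 UMIs in the gated cells.

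*GRM6* stood at 1.69 UMIs per 10000 in the ON bipolar cells of N350 and 3.44 in those of N354, against 0.0302 and 0.0194 in other cells. Its UMIs in gated cells, 262 and 240, outnumbered the 67 and 17 in the far larger rest of the retina, and the log2 fold change was 6.53 ± 0.37 (SE, adjusted p = 3.10e-07). *GPR179*, which anchors the RGS proteins, was at 0.840 and 1.19 against 0.0185 and 0.0103 (5.98 ± 0.35, adjusted p = 3.86e-07). *GNAO1*, with the most UMIs of the cascade outside the rule, was at 12.9 and 7.82 against 1.39 and 0.278 (3.98 ± 0.34, adjusted p = 5.16e-06). Each of the 3 was higher in the gated cells of both dogs.

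*GNB3*, the G protein beta subunit of ON bipolar cells and cones, was at 6.83 and 6.37 UMIs per 10000 against 2.37 and 0.788 in other cells (log2 fold change 2.32 ± 0.32, adjusted p = 0.000241). Genes of the RGS proteins that speed the shutoff of Go were higher too. *RGS7* had a log2 fold change of 2.94 ± 0.34 (adjusted p = 5.36e-05), its binding protein *RGS7BP* of 1.43 ± 0.27 (adjusted p = 0.00210), and *RGS11* of 0.82 ± 0.24 (adjusted p = 0.0329). *RGS11* was also abundant outside the gate, at 1.64 and 2.01 against 2.60 and 3.86 in ON bipolar cells. *GNB5*, the partner of both RGS proteins, did not pass the test, at 1.72 and 1.08 against 1.97 and 1.52 (-0.33 ± 0.21, adjusted p = 0.356). *NYX*, the gene of nyctalopin that holds TRPM1 at the dendrite tips, had 5 and 13 UMIs in the gated cells (2.95 ± 0.92, adjusted p = 0.0436).

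Among the leucine-rich repeat genes of this synapse, *LRIT1* was higher (2.12 and 1.94 against 1.42 and 0.909, log2 fold change 0.84 ± 0.22, adjusted p = 0.0194), while *LRIT3* and *LRIT2* were lower. *LRIT3*, which photoreceptors also make, was at 0.142 and 0.0430 against 0.744 and 0.428 (-2.64 ± 0.35, adjusted p = 0.000171). *LRIT2* had 4 and 2 UMIs in the gated cells (-2.33 ± 0.71, adjusted p = 0.0390). *LRIT2* and *LRIT3* had fewer than 10 UMIs in the gated cells of N354 and are among the 478 such genes described below.

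**Figure D3:**
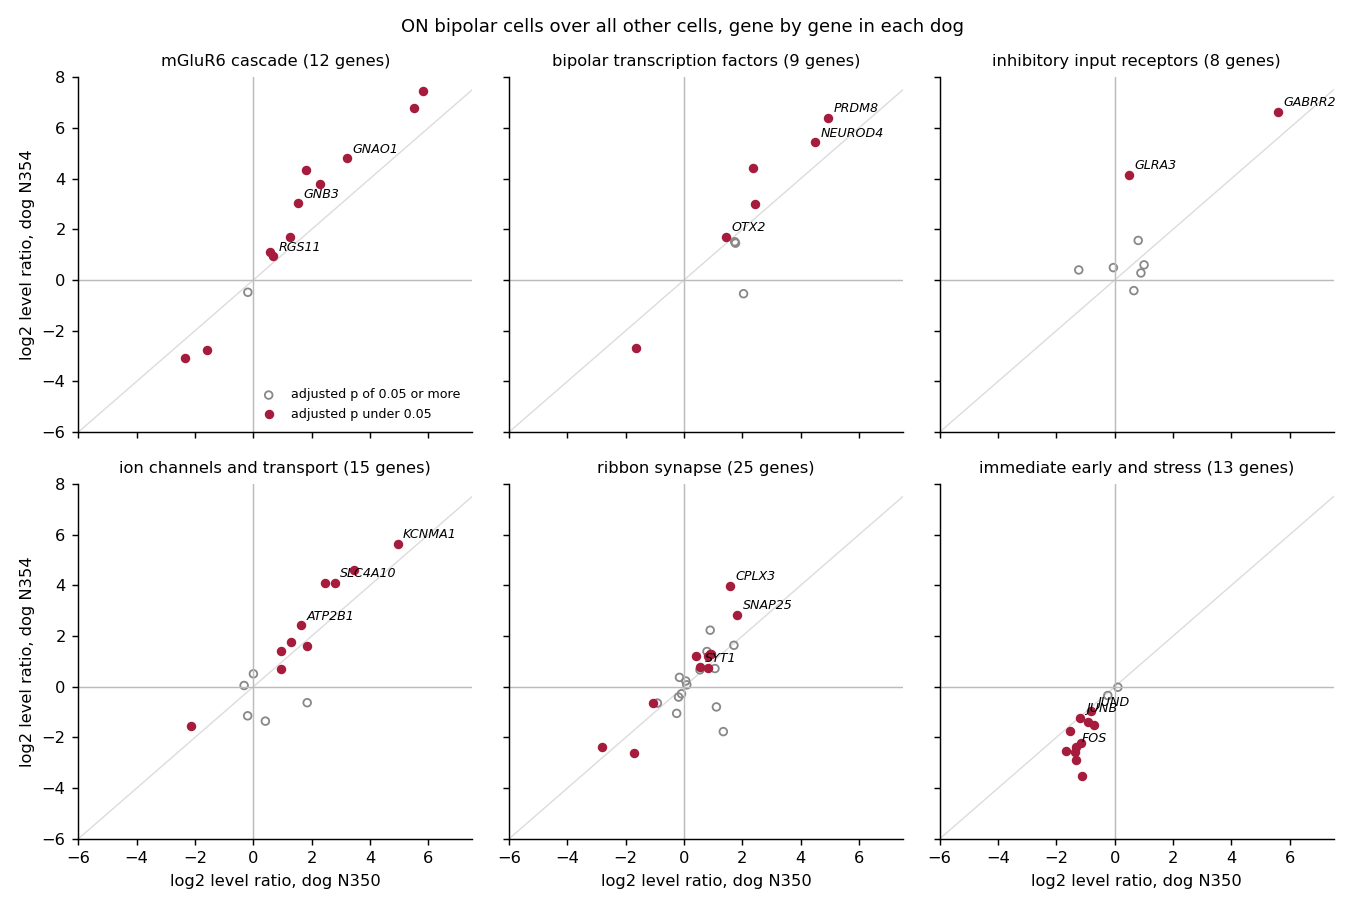
Each point is a gene of the list in the panel title with at least 1 UMI in the ON bipolar cells of each dog, at the log2 ratio of its level in ON bipolar cells over all other cells in N350 (x axis) and N354 (y axis); genes not reported here are not drawn. Filled points passed the test; those of the mGluR6 cascade lie up and right of 0 except *LRIT2* and *LRIT3*, and those of the immediate early and stress genes lie down and left of 0 in both dogs.

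Transcription factors of bipolar cells were mostly higher. Of 11 tested outside the rule, 6 were higher and 2 lower, with a median log2 fold change of 1.58, beside 7.67% and 9.3% of all genes tested. Without the cells holding other markers 8 were higher and 2 lower, beside 10.4% and 17.5%. *PRDM8* was at 2.70 and 1.39 UMIs per 10000 against 0.0876 and 0.0160 in other cells (5.50 ± 0.35, adjusted p = 5.93e-07). *NEUROD4* was at 1.70 and 3.47 against 0.0758 and 0.0798 (4.97 ± 0.29, adjusted p = 3.86e-07). Both genes were higher in the gated cells of each dog.

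*OTX2*, which rods, cones and bipolar cells share, was at 1.38 and 1.65 UMIs per 10000 against 0.509 and 0.510 (log2 fold change 1.58 ± 0.21, adjusted p = 0.000192). *PRDM1*, which favours the photoreceptor over the bipolar fate, had 1 and 0 UMIs in the gated cells, at levels of 0.00646 and 0, against 0.0470 and 0.146 in other cells. *IRX5*, a factor of cone bipolar cells, was at 0.116 and 0.0861 against 0.379 and 0.596 (-2.09 ± 0.35, adjusted p = 0.000923). It too had fewer than 10 UMIs in the gated cells of N354 and is among the 478 such genes described below.

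Receptors for inhibitory transmitters, by which amacrine cells act on bipolar terminals, gave 5 genes higher and 0 lower of 11 tested, with a median log2 fold change of 1.02. *GABRR2*, a subunit of the slow GABA-C receptor, was at 1.18 and 6.76 UMIs per 10000 against 0.0244 and 0.0673 in other cells (6.15 ± 0.30, adjusted p = 9.32e-08). Its level was higher in N354, and it was found in 32.7% and 69.0% of the gated cells against 0.163% and 0.482% of rods. The glycine receptor subunit *GLRA3* was at 0.116 and 0.430 against 0.0853 and 0.0239 (2.18 ± 0.70, adjusted p = 0.0485), with the levels of N350 close together. Without the cells holding other markers 5 were higher and *GABRA2* was lower.

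Ion channels and transporters gave 9 genes higher and 3 lower of 17 tested, with a median log2 fold change of 1.02. The shares over all genes tested were 7.67% higher and 9.3% lower. Without the cells holding other markers 8 were higher and 4 lower, beside shares of 10.4% and 17.5%. *KCNMA1*, the BK potassium channel, was at 1.34 and 6.03 UMIs per 10000 against 0.0433 and 0.121 (5.33 ± 0.29, adjusted p = 2.24e-07). *SLC4A10*, a bicarbonate transporter, was at 3.31 and 4.25 against 0.478 and 0.246 (3.44 ± 0.29, adjusted p = 5.74e-06). *ATP2B1*, a calcium pump of the plasma membrane and the gene with the most UMIs of the list, was at 8.60 and 22.2 against 2.78 and 4.13 (2.05 ± 0.23, adjusted p = 5.11e-05).

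The chloride exporter *SLC12A5* was also higher, at 2.62 and 1.54 UMIs per 10000 against 1.07 and 0.453 (log2 fold change 1.52 ± 0.22, adjusted p = 0.000308). Among the lower channels, the inward rectifier *KCNJ14* was at 0.323 and 0.0287 against 1.45 and 0.105 (-2.14 ± 0.33, adjusted p = 0.000559). *KCNJ14* had fewer than 10 UMIs in the gated cells of N354 and is among the 478 such genes described below.

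At the ribbon synapse, 8 of 25 genes were higher and 3 lower, with a median log2 fold change of 0.61. Over all genes tested, 7.67% were higher and 9.3% lower. Without the cells holding other markers 8 were higher and 6 lower, where the shares were 10.4% and 17.5%. *SNAP25*, a SNARE protein of vesicle fusion, had the most UMIs, at 37.4 and 23.5 per 10000 against 10.6 and 3.27 (2.35 ± 0.26, adjusted p = 3.41e-05). *CPLX3*, the ribbon synapse complexin, was at 11.7 and 22.1 against 3.95 and 1.40 (2.78 ± 0.43, adjusted p = 0.000517). Its paralog *CPLX4* stood the other way, at 5.27 and 1.19 against 17.4 and 7.36 (-2.13 ± 0.24, adjusted p = 4.66e-05).

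The active zone protein *PCLO* was at 2.58 and 6.50 UMIs per 10000 against 1.45 and 2.79 (log2 fold change 1.04 ± 0.21, adjusted p = 0.00332), and *SYT1*, the calcium sensor of release, at 11.4 and 15.2 against 7.81 and 8.95 (0.66 ± 0.20, adjusted p = 0.0388). *CABP4*, a calcium channel modulator of photoreceptor terminals, had 1 and 3 UMIs in the gated cells, at 0.00646 and 0.0430 against 0.0682 and 0.261 in other cells. *CACNB2*, a calcium channel beta subunit, was lower with all gated cells (-0.93 ± 0.27, adjusted p = 0.0332) and did not pass without the cells holding other markers (-0.58, adjusted p = 0.132). *CTBP2*, whose product RIBEYE builds the ribbon, was at 4.05 and 3.73 against 4.52 and 2.90 and did not pass (0.12 ± 0.22, adjusted p = 0.790).

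Adhesion and wiring genes gave 6 higher and 2 lower of 20, with a median log2 fold change of 0.21, where 7.67% of all genes tested were higher and 9.3% lower. They gave 5 and 5 without the cells holding other markers, where the shares were 10.4% and 17.5%. The immunoglobulin adhesion molecule *CADM1* had the most UMIs, at 6.45 and 7.15 per 10000 against 4.65 and 2.65 (0.98 ± 0.25, adjusted p = 0.0160). *CNTN4*, a contactin, was at 0.885 and 2.48 against 0.128 and 0.0855 (3.82 ± 0.40, adjusted p = 2.44e-05), and *SDK1* at 0.297 and 0.373 against 0.0330 and 0.00570 (4.13 ± 0.58, adjusted p = 0.000253). *SDK1* had fewer than 10 UMIs in the other cells of N354 and is 1 of the 60 such genes described below. *EGFLAM*, the gene of pikachurin, and *DAG1*, its dystroglycan receptor, were both lower, *EGFLAM* at 0.129 in each dog against 0.738 and 0.948 (-2.68 ± 0.36, adjusted p = 0.000175) and *DAG1* with -1.35 ± 0.38 (adjusted p = 0.0285). *EGFLAM* had fewer than 10 UMIs in the gated cells of N354 and is among the 478 genes called lower on such counts.

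Of the 13 rod bipolar genes, 3 belong to the rule, and of the 7 others that could be tested 0 passed by edgeR or DESeq2 in either direction, with 0 at an unadjusted p under 0.05, where 28.6% of all genes tested were, and a median log2 fold change of -0.39. By edgeR 0 passed without the cells holding other markers as well. *TPBG* had 3 and 0 UMIs in the gated cells and *CA8* had 20 and 3. *GABRR1* was not analysed in N354; in N350 it was found in 34.8% of gated cells against 0.352% of rods. Of 9 ON cone bipolar genes tested, *CNMD*, *SERPINI1* and *NELL2* were higher and *CALB1* and *MEIS2* lower. *SERPINI1*, the gene of neuroserpin, was at 6.37 and 9.10 UMIs per 10000 against 0.873 and 0.914 (3.11 ± 0.22, adjusted p = 1.65e-06), and *CALB1*, which horizontal cells make, at 1.16 and 0.187 against 5.17 and 1.97 (-2.57 ± 0.28, adjusted p = 3.21e-05). *NELL2* did not pass without the cells holding other markers (1.92, adjusted p = 0.0534). Of 10 OFF cone bipolar genes tested, *NETO1*, *PROX1* and *GRIA2* were higher and 0 lower, and *PROX1* was at 5.12 and 3.63 against 1.18 and 0.290 (2.83 ± 0.32, adjusted p = 5.10e-05).

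By size, the largest fitted increases among genes with a name and at least 20 UMIs in each dog over the populations compared were *PIWIL2*, *IGF1*, *GRM6*, *NTNG1*, *GABRR2*, *HYDIN*, *SYK*, *CLVS1*, *GPR179* and *TMEM196*. Of the 805 genes called higher, 60 had fewer than 10 UMIs in the other cells of a dog and so met the minimum of 10 there through the gated cells in which they are high. *PIWIL2*, *IGF1*, *HYDIN*, *SYK*, *CLVS1* and *GPR179* were among them. Of the 975 called lower, 478 had fewer than 10 UMIs in the gated cells of a dog, all 10 of the largest decreases among them, and met the minimum through the other cells, which held 22150576 and 8770389 UMIs in all. With no filter on low counts, all 60 and all 478 were called in the same direction. That fit used the same sums of the same cells, so it gives these calls no further support. *PIWIL2*, a protein of the piRNA pathway, had 50 and 21 UMIs in the gated cells and 6 and 1 in all other cells, with a fitted log2 fold change of 7.09 ± 0.60. *IGF1*, a growth factor, had 44 and 153 UMIs against 10 and 9 in other cells (6.93 ± 0.42).

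*NTNG1*, the axon guidance molecule netrin G1, was at 2.39 and 5.91 UMIs per 10000 against 0.0388 and 0.0639 (6.23 ± 0.27, adjusted p = 3.67e-08). Both levels in gated cells were far above those in other cells. *HYDIN*, a protein of motile cilia, was at 0.226 and 1.22 (6.11 ± 0.51), the kinase *SYK* at 0.213 and 0.430 (6.01 ± 0.54), *CLVS1*, a clavesin of endosomes, at 0.485 and 0.933 (6.01 ± 0.36), and *TMEM196* at 1.59 and 2.51 (5.83 ± 0.48). For these 10 genes the fitted change was larger without the cells holding other markers. Other cells leave out the OFF bipolar cells defined below, against which 11 of 10484 genes were called higher. The comparison with other cells thus cannot show that these genes are particular to ON bipolar cells.

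Among the largest decreases, *ADGRF5*, *LHX1*, *ATP1A4* and *RACGAP1* had 0 UMIs in the gated cells of both dogs, which allows levels up to 0.0194 in N350 and 0.0430 in N354 by 3 UMIs. In other cells *ADGRF5* stood at 0.107 and 0.0319, so that N354 lay below what 0 UMIs allow there, and *LHX1*, a factor of horizontal cells that the OFF gate requires at 0, at 0.0637 and 0.0661. *ATP1A4* was at 0.0424 and 0.0582 and *RACGAP1* at 0.0330 and 0.0604. *POSTN*, a matrix protein of mesenchymal cells, the adhesion molecule *VCAM1*, *PRRX1* and *LPAR6* had 1 UMI each in N350 and 0 in N354. *IGFBP7*, a matrix protein of endothelial cells, had 4 and 0 UMIs, at 0.0258 and 0, against 0.984 and 0.299 in other cells (log2 fold change -5.45 ± 0.50, adjusted p = 8.78e-06).

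Immediate early and stress genes, which dissociation can induce, were lower in ON bipolar cells, 11 of 13 by the test and 0 higher, with a median log2 fold change of -1.40 and of -3.32 without the cells holding other markers. *FOS* was at 20.5 and 2.77 UMIs per 10000 against 51.7 and 14.6 in other cells (-1.80 ± 0.26, adjusted p = 0.000361). *JUNB* was at 7.01 and 0.143 against 15.8 and 0.352 (-1.19 ± 0.23, adjusted p = 0.00249), and *JUND* at 9.44 and 0.172 against 16.5 and 0.351 (-0.85 ± 0.23, adjusted p = 0.0206). All 3 were lower in N354 in both populations, and *JUN* was not analysed in that dog.

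Of the markers of other cell types tested, 12 of 12 rod, 10 of 10 Müller, 9 of 10 cone, 5 of 7 horizontal, 4 of 5 vascular and 2 of 4 astrocyte genes were lower, but 1 of 10 amacrine genes. Ganglion markers were the exception, with 7 of 8 higher and a median log2 fold change of 2.71, and 2 higher by DESeq2. Of the 7, *NEFH*, *SNCG*, *RBPMS* and *THY1* were higher in N350 alone, and in N354 they stood lower in the gated cells than in other cells, *NEFH* at 0.0143 against 0.113. Without the cells holding other markers, 1 was higher and 4 were lower, with a median of -2.00. The 1 that stayed higher was *NEFM*, the medium neurofilament, at 14.8 and 5.62 UMIs per 10000 against 0.402 and 0.130 (5.28 ± 0.43, adjusted p = 3.94e-06), and with 4.33 (adjusted p = 7.09e-10) without those cells. *NEFM* was found in 59.3% and 65.5% of the gated cells with all 8 markers. Among the microglia markers *AIF1* alone was higher of 4 tested, at 0.355 and 0.904 against 0.0402 and 0.0365 (3.84 ± 0.37, adjusted p = 1.42e-05). It was found in 11.4% and 18.2% of gated cells against 0.217% and 0.161% of rods, and in 13.4% and 22.4% of the OFF bipolar cells defined below, which is no less often than in the gated cells. The defining microglia genes were at or near 0 there, with *CX3CR1* and *P2RY12* at 0 UMIs in both dogs, *C1QA* at 1 in each, and *C1QB* and *C1QC* at 1 in N350 and 0 in N354.

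The gated cells were then compared with OFF bipolar cells. These were taken by 1 or more *GRIK1* UMI and at least 2 of 7 bipolar genes, *VSX1*, *CABP5*, *NETO1*, *TACR3*, *PCP2* and *GNG13* among them, with *ONECUT1*, *ONECUT2* and *LHX1* at 0, which gave 82 cells in N350 and 58 in N354 at medians of 2348 and 3085.5 UMIs. Of 10484 genes tested, 11 were higher in ON than in OFF bipolar cells (0.105%) and 41 were lower (0.391%). The OFF gate overlapped in kind with the ON gate, since *TRPM1* was found in 36.6% and 46.6% and *PRKCA* in 37.8% and 41.4% of its cells. With OFF cells that had no UMI of *TRPM1*, *ISL1* or *PRKCA*, 45 and 29 in number, 173 of 10470 genes were higher (1.65%) and 131 lower (1.25%), and all 52 first calls were among them. These stricter OFF cells were chosen after the data had been seen, and because they lack ON genes, any gene that goes with *TRPM1*, *ISL1* or *PRKCA* is lower in them by construction. Without the gated cells holding other markers and with all OFF cells, 188 of 10457 were higher (1.8%) and 472 lower (4.51%), with 45 of the 52 among them. With no term for the dog 0 genes were called by edgeR, with 181 at an unadjusted p under 0.05.

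The 5 largest decreases in ON bipolar cells passed under each of these choices of cells. In N354 these genes had 1 to 4 UMIs in ON cells, against 18 to 38 in OFF cells. They thus reached the minimum of UMIs for naming in that dog through the OFF cells, in which they are high. The other choices were made after the data had been seen and reuse the same libraries, so they are no independent support. *FEZF2*, a zinc finger transcription factor, was at 0.0517 and 0.0430 UMIs per 10000 in ON bipolar cells of N350 and N354 against 1.53 and 1.06 in OFF bipolar cells. Its levels were thus low in the ON cells of both dogs, with a log2 fold change of -4.58 ± 0.52 (adjusted p = 0.00112). *NRGN*, the calmodulin-binding neurogranin, was at 0.220 and 0.0287 against 4.51 and 1.75 (-4.52 ± 0.33, adjusted p = 1.72e-05).

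*COX4I2*, an isoform of a cytochrome c oxidase subunit, was at 0.103 and 0.0143 UMIs per 10000 in ON against 1.35 and 1.65 in OFF bipolar cells (log2 fold change -4.41 ± 0.54, adjusted p = 0.00216). *DCDC2*, a doublecortin domain protein, was at 0.0323 and 0.0574 against 0.532 and 1.10 (-3.97 ± 0.63, adjusted p = 0.0122), and the adhesion molecule *ESAM* at 0.0840 and 0.0574 against 1.35 and 0.827 (-3.88 ± 0.52, adjusted p = 0.00321). With the stricter OFF cells the log2 fold changes of these 5 genes were -5.34 to -4.24, and without the gated cells holding other markers -4.37 to -3.11. The teneurin *TENM3*, of the adhesion genes, was lower too (-2.43 ± 0.45, adjusted p = 0.0304).

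Of the 5 largest increases in ON bipolar cells among genes with at least 20 UMIs in each dog over the ON and OFF cells, 2 passed in the same direction without the gated cells holding other markers. *RELN*, the secreted reelin, was at 0.995 and 0.646 UMIs per 10000 against 0.142 and 0 in OFF bipolar cells, where N354 had 0 UMIs (log2 fold change 3.58 ± 0.61, adjusted p = 0.0196). *NEFM* was at 14.8 and 5.62 against 1.45 and 2.85 (2.27 ± 0.42, adjusted p = 0.0319), and it stayed higher without the gated cells holding other markers (1.54, adjusted p = 0.00767). *UCHL1*, a neuronal ubiquitin hydrolase, and *CALY*, the vesicle protein calcyon, were higher by 2.64 ± 0.44 (adjusted p = 0.0183) and 1.61 ± 0.24 (adjusted p = 0.00801). Without those cells they turned to lower, at -2.50 and -2.98. Those cells were left out of the ON side alone, which can by itself lower a gene there. The turn is therefore a description with no test. *GADD45B*, a stress response gene, was higher by 1.43 ± 0.27 (adjusted p = 0.0336) and did not pass without those cells (0.34, adjusted p = 0.635). *SNCG*, a ganglion marker, was also called, with 706 UMIs in ON cells of N350, 0 in those of N354 and 1 and 0 in OFF cells. *GABRA2*, a GABA-A receptor subunit, fell short of 20 UMIs in N354, with 16 in ON and 0 in OFF cells, and was called at 3.73 ± 0.70 (adjusted p = 0.0329). It was at -1.11 (adjusted p = 0.820) without those cells.

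No cascade gene was called between the gates as first set, with 0 of 12 called by edgeR or DESeq2, 7 at an unadjusted p under 0.05 by edgeR, where 8.42% of all genes tested were, and a median log2 fold change of 0.66 against 0.12 over all genes tested. *GRM6* was at 1.69 and 3.44 UMIs per 10000 in ON against 1.42 and 1.52 in OFF bipolar cells (0.96 ± 0.34, adjusted p = 0.432), and *GNAO1* at 12.9 and 7.82 against 9.05 and 4.36 (0.93 ± 0.31, adjusted p = 0.386). With the stricter OFF cells the fitted log2 fold change was 2.20 for *GRM6* and 2.75 for *GNAO1*. These values are a description with no test, since the choice of cells without *TRPM1*, *ISL1* and *PRKCA* lowers the cascade there. Without the gated cells holding other markers, 6 were higher and 0 lower. Those cells were left out of the ON side alone, while all 82 and 58 OFF cells were kept. That choice can by itself raise bipolar genes on the ON side, so this count too is a description with no test. Inhibitory receptors, ribbon synapse genes and ion channels gave 1, 0 and 0 calls by edgeR with the gates as first set, the 1 being *GABRA2*. Of 25 ribbon genes 5 and of 17 channels 3 were at an unadjusted p under 0.05, beside the same 8.42% of all genes, and DESeq2 called 1 and 0 of them.

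**Figure D4:**
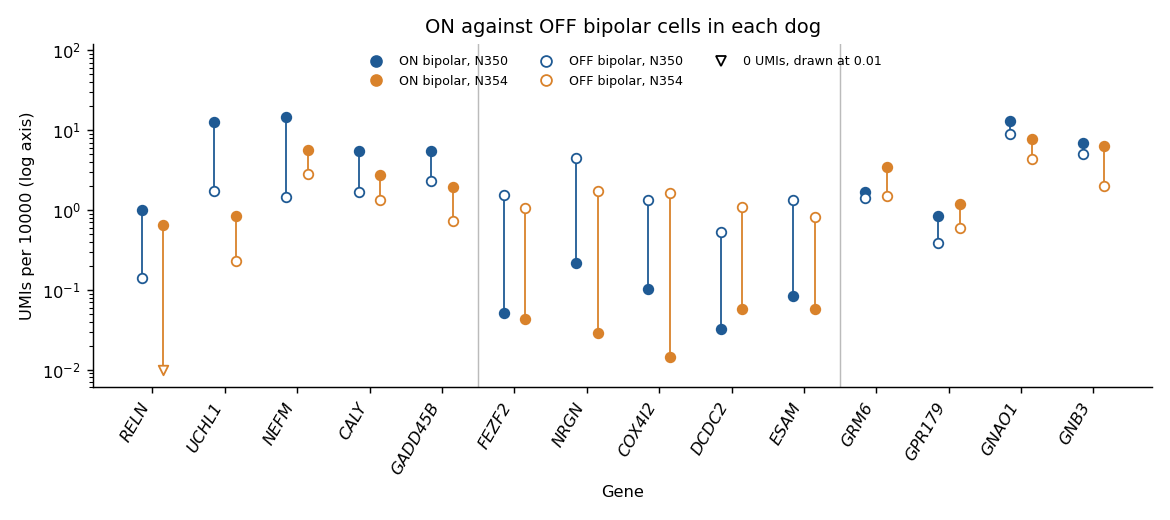
Level (UMIs per 10000, log axis) in ON (filled) and OFF (open) bipolar cells of each dog, joined by a line, for the 5 genes with the largest increase and the 5 with the largest decrease among those with at least 20 UMIs in each dog, and 4 cascade genes. The 5 decreased genes, *FEZF2* to *ESAM*, lie lower in ON cells by a wide gap in both dogs, while *GRM6* of N350 lies close together at 1.69 and 1.42.

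*PRKCA* was then used to split the gated cells. A *PRKCA* UMI was found in 242 of 376 cells in N350 (64.4%, exact 95% interval 59.3% to 69.2%) and 189 of 274 in N354 (69.0%, 63.1% to 74.4%). After gating on cells thinned to 1000 UMIs it was 65.8% and 57.1%. Cells with *PRKCA* were deeper, with medians of 2733 and 2627 UMIs against 1622 and 1730, so that depth and the catch of *PRKCA* cannot be told apart in a single cell. Of the UMIs of cells without *PRKCA*, 74.4% in N350 and 42.7% in N354 lay in the cells that hold other markers. Ganglion markers summed to 131 and 11.4 UMIs per 10000 there against 10.3 and 7.38 in cells with *PRKCA*, and *NEFL* led them in N350 at 47.3. The count over all genes and some of the differences below are therefore also given without those cells.

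Of 5827 genes tested, 37 were higher in cells with *PRKCA* (0.635%) and 67 were lower (1.15%). Without the cells holding other markers 7 of 4881 were higher (0.143%) and 39 lower (0.799%), and 23 calls were shared with the first 104. Among cells with at least 5 of the 7 other markers of the rule, 197 and 170 with *PRKCA* and 26 and 32 without, 0 genes (0%) were called by edgeR, with 248 at an unadjusted p under 0.05. DESeq2 called 49 higher and 102 lower in all gated cells. With no term for the dog edgeR called 0, with 279 at an unadjusted p under 0.05. The higher calls depended on the choice of cells, with 0 left of 37 when at least 4 of the 8 markers were required, 0 after thinning to 1000 UMIs and 2 after removal of the highest Scrublet scores, against 9, 9 and 14 lower calls. Of the first calls, 17 of the 37 higher and 35 of the 67 lower had fewer than 10 UMIs in a dog in the cells where they are low, and so met the minimum of 10 UMIs there through the cells where they are high. With no filter on low counts, all 17 and 34 of the 35 were called in the same direction. This too was a fit of the same sums and gives the calls no further support. Of the 10 largest increases these were all but *KALRN* and *SLCO5A1*, and of the 10 largest decreases *VGF*, *CHGB*, *PCDH9*, *RELN* and *ATP1B1*.

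*CNMD*, the gene of chondromodulin, was higher with *PRKCA* both with and without the cells holding other markers. It was at 1.94 and 1.37 UMIs per 10000 in cells with *PRKCA* and at 0.208 and 0.261 in those without, there on 14 and 5 UMIs. *CNMD* is on the list of ON cone bipolar genes above, whereas *PRKCA* is a gene of rod bipolar cells. The log2 fold change was 3.05 ± 0.52 (adjusted p = 0.0373), and 2.20 (adjusted p = 0.0419) without the cells holding other markers. *PIWIL2* was at 0.549 and 0.376 against 0.0297 and 0.104 (fitted log2 fold change 3.29 ± 0.64), on 2 UMIs in each dog in cells without *PRKCA*. *SYK* was at 0.354 and 0.554 against 0.0297 and 0.104 (2.99 ± 0.57), and *PLS1*, an actin bundling plastin, at 0.320 and 0.574 against the same 2 levels (2.90 ± 0.55), each again on 2 UMIs per dog in cells without *PRKCA*.

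*SLC24A4*, a sodium, calcium and potassium exchanger, was at 1.05 and 2.06 UMIs per 10000 with *PRKCA* and at 0.119 and 0.522 without (log2 fold change 2.49 ± 0.46, adjusted p = 0.0373). *KALRN*, a guanine nucleotide exchange factor of dendrites, was at 1.59 and 1.86 against 0.208 and 0.522 (2.47 ± 0.52, adjusted p = 0.0480). *SLCO5A1*, *MMP9*, *STRIP2* and *C16H4orf47* completed the 10 largest increases, with 2.20 to 2.57. *C16H4orf47* turned to -0.69 (adjusted p = 0.965) after thinning to 1000 UMIs. Outside *CNMD*, none of the 10 passed without the cells holding other markers, where their log2 fold changes were 1.46 to 2.27.

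*VGF*, a neuropeptide precursor, had the largest fitted decrease among the genes with at least 20 UMIs in each dog. It was at 0.126 and 0.0198 UMIs per 10000 with *PRKCA*, on 11 and 1 UMIs, and at 2.93 and 2.97 without, with a log2 fold change of -5.39 ± 0.54 (adjusted p = 0.00425). The dogs were close in cells without *PRKCA* and apart in those with it. *RELN* was at 0.206 and 0.0990 against 2.02 and 2.09 (-3.75 ± 0.40, adjusted p = 0.00552). *SCG3*, a granin of secretory granules, was at 1.30 and 0.752 against 5.23 and 11.6 (-2.86 ± 0.46, adjusted p = 0.0373).

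*PCDH9*, a protocadherin, was at 0.217 and 0.0792 UMIs per 10000 with *PRKCA* against 2.96 and 1.20 without (log2 fold change -3.88 ± 0.61, adjusted p = 0.0373). *VGF*, *RELN* and *PCDH9* met the minimum of 10 UMIs in a dog through the cells without *PRKCA*, in which they are high. *VGF*, *RELN*, *SCG3* and *PCDH9* passed in the same direction without the cells holding other markers, with adjusted p between 8.73e-06 and 0.00536. That fit reused the same libraries, so it is no independent support. *CHGB*, another granin, was at 0.720 and 0.0792 against 14.2 and 1.10 (-4.15 ± 0.74, adjusted p = 0.0373), and *UCHL1* at 3.22 and 0.297 against 24.8 and 2.24 (-2.98 ± 0.41, adjusted p = 0.0317). *CHGB*, *UCHL1*, *CALY* and *ATP1B1* had too few UMIs to be tested without those cells. *STMN2*, a ganglion marker, fell by a log2 of 2.97 with all cells and turned to 1.48 (adjusted p = 0.493) without them.

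Of 6 bipolar transcription factors tested, 1 was higher and 0 lower, where 0.635% of all genes tested were higher and 1.15% lower. By edgeR 0 of them passed without the cells holding other markers. Of 9 cascade genes tested, 0 were called by edgeR or DESeq2, with 5 at an unadjusted p under 0.05 by edgeR, where 19% of all genes tested were, and a median log2 fold change of 0.81 against -0.02 over all genes tested. *GRM6* was at 2.37 and 3.92 UMIs per 10000 with *PRKCA* against 0.817 and 2.19 without (1.12 ± 0.36, adjusted p = 0.132), and 0.29 (adjusted p = 0.727) without the cells holding other markers. Of 18 ribbon synapse genes and 2 rod bipolar genes tested 0 passed by edgeR, with 3 and 0 at an unadjusted p under 0.05, which is no more than the 19% over all genes, and DESeq2 called 1 and 0. Of 7 inhibitory receptors, 13 ion channels and transporters and 8 adhesion genes tested, 1 each was lower with *PRKCA*, *GABRA2* and *ATP1B1* for the first 2 lists, where 1.15% of all genes tested were lower.

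**Figure D5:**
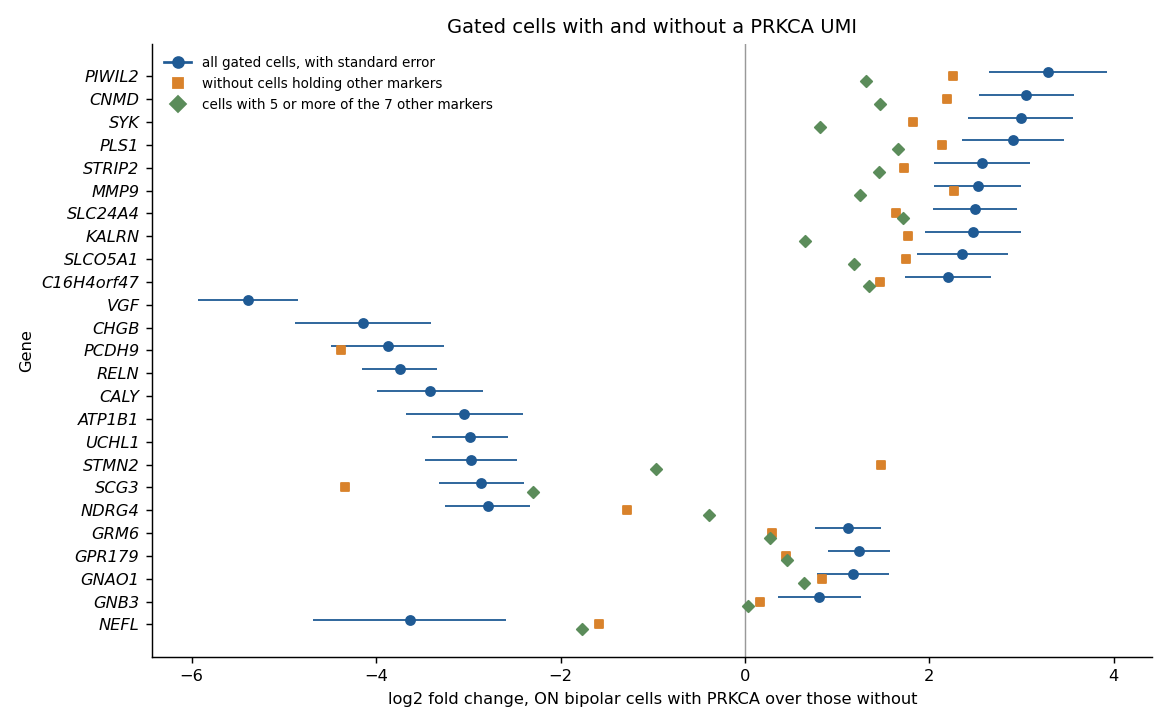
Fitted log2 fold change of gated cells with a *PRKCA* UMI over those without, for the 10 largest increases and the 10 largest decreases among genes with at least 20 UMIs in each dog, 4 bipolar genes and *NEFL*; bars are standard errors with all gated cells. Squares, without the cells holding other markers, and diamonds, among cells with at least 5 of the other 7 markers, lie nearer 0 for all 10 increases, and genes with no square or diamond had too few UMIs, except *VGF* and *RELN*, whose squares lie beyond the axis.

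Between the dogs, levels in the gated cells correlated at r = 0.721 (Pearson, log2 scale) over 9597 genes, which share the libraries and are not independent, against 0.837 over 12286 genes in other cells and 0.579 over 6402 in OFF bipolar cells. Several genes that define the population stood apart. *TRPM1* was at 12.3 UMIs per 10000 in N350 and 45.5 in N354, *PCP2* at 25.6 and 62.7, and *GNG13* at 16.4 and 40.4. These sums weigh deep cells most, and 57.2% of the gated UMIs of N350 against 21.5% in N354 lay in the cells holding other markers. With every cell of at least 1000 UMIs thinned to that depth, *TRPM1* was at 18.9 and 50.3, *PCP2* at 39.9 and 70.7, and *GNG13* at 26.4 and 43.5, so that the dogs stood closer in each. *GABRR2*, *KCNMA1* and *ATP2B1* were likewise higher in N354 in the sums over all gated cells. *CABP5* was at 10.9 in N350 and 4.05 in N354, and at 16.7 and 4.36 after thinning, while *GNAO1*, *SNAP25* and *CPLX4* were higher in N350. With 1 library of each dog and tables that list different genes, no test of these differences was made.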

How the data were processed

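Single cells of the neuroretina of N350 and N354 were captured in droplets, 1 library per dog. The authors made the deposited counts with Cell Ranger, version 6.0.2 per the file headers, as raw UMI counts of each gene in each cell barcode, with no scaling. The genome build named in the study's methods is canFam6. No mitochondrial limit was used.

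Barcodes with at least 200 genes were gated as described, and rods, Müller glia and OFF bipolar cells were gated by their own markers. Rods needed at least 4 of 8 rod genes with *RLBP1*, *GLUL* and *ARR3* at 0, and Müller glia at least 3 of 6 markers. UMIs were summed per dog and population. The 15224 names in both tables were used, repeated names were summed, and genes with at least 10 UMIs over all cells of each dog, or over its gated cells for *PRKCA*, were tested. The test was the quasi-likelihood test of edgeR 4.0.16 (R 4.3.3) with TMM normalization and the dog as a block, with Benjamini-Hochberg adjustment over 10498 genes against other cells, 10498 against OFF bipolar cells and 5835 for *PRKCA*. Genes of the ON rule stayed in the fit but not in the counts, and against OFF bipolar cells the same held for genes of the OFF gate. Populations of the same dog share an animal and a library, which pairs them, and deviations between the dogs correlated at 0.603 to 0.813 between populations over 11145 genes. Standard errors were taken from the fold change and its F statistic. Of 200 genes of simulated data changed by a log2 of 2, the test recovered 97%, 80% and 98% of those raised and 66%, 43% and 82% of those lowered in the comparisons with other cells, with OFF bipolar cells and by *PRKCA*, with 27, 16 and 14 other calls. DESeq2 1.42.0, RLE normalization, other gates, cells thinned to 1000 UMIs and doublet removal with Scrublet in scanpy 1.11.5 were alternatives. Intervals are exact binomial (Python 3.11.15, scipy 1.17.1), and where 0 UMIs were found the limit was set at 3 UMIs.

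The members and gene lists were chosen with earlier results of these data known. Named are the list genes with the most UMIs in ON bipolar cells or called against their list, and the 10 genes called with the largest change in each direction (5 for ON against OFF), with at least 20 UMIs in each dog and the same direction in both. Other genes named as examples were chosen after their values were seen. Some genes of the lists are not reported here, though they count in the numbers given for a list. No sequences were used.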

Additional observations from a re-analysis of the deposited data

How the results depend on the processing

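Populations of the same dog are paired, and the dog was kept as a block. With no replicate block, 0 genes were called against other cells, 0 against OFF bipolar cells and 0 by *PRKCA*.

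Against other cells, 1780 genes were called, 1096 with DESeq2 and 2918 without cells holding other markers. Against OFF bipolar cells, 52 were called, and 227 with no filter on low counts, 163 with at least 4 of 8 markers, 115 with *GRIK1* at 0 or 1, 92 after thinning to 1000 UMIs, 660 without cells holding other markers, 503 with at least 5 of the 7 markers other than *PRKCA* and 304 with stricter OFF cells. By *PRKCA*, 104 were called, and 678 with no filter, 16 after removal of the top Scrublet scores, 9 with at least 4 markers, 180 with at least 3 of 7 markers, 9 after thinning, 46 without cells holding other markers and 0 with at least 5 of 7 markers. The 9 after thinning and the 9 with at least 4 markers were all lower, as were 14 of the 16. The counts with fewer cells rest on fewer UMIs.

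The share of gated cells in N350 was 3.22% with at least 4 markers, 2.51% with at least 5 of 7, 3.28% without cells holding other markers and 0.524% at most 5% mitochondrial. In N354 it was 5.47%, 4.60%, 5.36% and 0.147%, with 8.87% after thinning and 0.146% under 5% on MT- names, which remove no cell of N350. The share with *PRKCA* in N350 was 78.3% with at least 4 markers, 88.3% with at least 5 of 7 and 47.1% at most 5% mitochondrial. In N354 it was 75.8% and 84.2%, with 57.1% after thinning, and 1 of 2 cells (50%) under each mitochondrial limit. Both mitochondrial limits left too few gated cells for gene tests, which were not run.

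Reversed log2 fold changes, whose cause was not tested, were as follows. Against other cells, *SNCG* went to -10.36 with at least 4 markers, -8.73 without cells holding other markers, -10.29 with at least 5 of 7 and -0.87 without N350 (4.77 without N354). The 4 negative values rest on 0 UMIs in the ON cells and are no bound. *STMN2* went to -0.59 without cells holding other markers. Against OFF bipolar cells, *SNCG* had 0 UMIs in ON cells under the same 4 and 1 or 0 in OFF cells, so that its fitted -6.56, -6.34, -6.49 and -1.68 (6.42 without N354) measure no change. *CALY* went to -0.99, -2.98 and -1.91 under the first 3 and -1.16 after thinning, *UCHL1* to -0.20, -2.50 and -0.999 under the first 3, and *GABRA2* to -1.11 without cells holding other markers. By *PRKCA*, *STMN2* went to 0.23 with at least 4 markers, 1.48 without cells holding other markers and 0.29 after thinning, where *C16H4orf47* was at -0.69 and *GNB3* at -0.072. RLE normalization kept 1780, 52 and 97 of the first calls. Leaving out a dog leaves 1 sum per population, which gives a value with no test. The choices without cells holding other markers, with at least 5 of 7 markers, with stricter OFF cells and at most 5% mitochondrial were made after the data had been seen.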
